A study of Mus musculus with 14 samples.

Results

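Transcripts of 41 lysosomal enzymes, enzyme activators and membrane proteins were followed in mouse pancreatic beta cells with altered Sirt1, an NAD-dependent protein deacetylase. A gene was included when the single symbol of a probe, updated through its Entrez identifier, stood on a list of lysosomal hydrolases, activators, cathepsins and membrane proteins. All 41 listed genes had a probe, out of 15099 genes named by a single symbol. They were read by 46 probes, of which all 46 could be tested, and 4 genes (Psap, Galc, Arsb and Ppt1) had several probes.

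RNA of 4 lines derived from MIN6, an insulin-secreting mouse beta-cell line obtained at passage 24, was hybridised on 14 two-colour arrays, each with a line in one channel and control RNA in the other. Sir2OE1 (3 arrays) and Sir2OE2 (4 arrays) had been infected with a pBabe retrovirus bearing mouse Sirt1 and neomycin resistance, and were set against pooled RNA of the Neo1 and Neo2 lines, which carry the pBabe-neo virus alone. Sir2KD1 (3 arrays) and Sir2KD2 (4 arrays) had received mU6pro vectors for 2 small interfering RNAs against Sirt1 together with a neomycin marker plasmid, and were set against the mU6pro empty-vector line. The Sir2OE lines had been selected in G418 at 280 and the Sir2KD lines at 400 micrograms per ml, and all lines, controls included, were kept in medium with 5 mM glucose for 4 days before RNA was taken. The sources used here do not say whether a line is 1 clone, or whether its slides came from separate cultures. The p-values therefore reflect differences among slides, possibly technical ones, and do not include variation among control lines.

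Lysosomes are acidic organelles in which hydrolases break down glycolipids, glycans, proteins and stored fat delivered by endocytosis and autophagy. The soluble enzymes are tagged with mannose 6-phosphate in the Golgi and sorted to the organelle, while heavily glycosylated membrane proteins line its boundary and a proton pump keeps it acid. In beta cells lysosomes also take up surplus insulin granules. Many lysosomal genes carry, near their start, a palindromic E-box with a flanking T or A, which the transcription factors TFEB, TFE3 and MITF bind.

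The values are log2 ratios, turned for each array by the channel the line was labelled in, so that line and control keep the same side throughout. Which side means more RNA in the line is not settled by the values or labels, and plus and minus name the sides only. The turn is itself an assumption, on which all calls rest. With values left as deposited, 0 members were called in any of the 4 lines. Those values were centred per probe within each kind of line, which removes what its arrays share, so this does not check the turn. Statements that set overexpressing against knockdown lines also assume that the ratios of both kinds have the same channel on top. The single Sirt1 probe was called in 0 lines by limma. Its arrays ran from -0.08 to 0.21 in Sir2OE1 and from -0.49 to -0.20 in Sir2OE2, where the fitted ratio was -0.33 ± 0.10 (SE, n = 4, adjusted p = 0.131). They ran from -0.21 to 0.03 in Sir2KD1, while all 4 arrays of Sir2KD2 were plus, from 0.07 to 0.22 (adjusted p = 0.651). The lines of a kind thus did not share a side, and the probe checks neither the labels nor the direction. Array medians over all probes ran from -0.0347 to 0.0165. Intensities were not used here, so the level of a gene and the presence of the beta-cell markers cannot be judged, only their ratios. A probe was called when its Benjamini-Hochberg adjusted p in limma, over 23230 probes, was under 0.05.

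Of the 41 members, 6 were called in at least 1 line and 35 in none. The 6 were the ganglioside activator Gm2a, acid ceramidase (Asah1), arylsulfatase B (Arsb), lysosomal alpha-mannosidase (Man2b1), cathepsin A (Ctsa) and acid lipase (Lipa). In Sir2OE1, 1 of 46 probes was called (2.17%), where the share over all probes was 1.06%. In Sir2OE2, 4 were called (8.70%) against 2.81% of all probes, and in Sir2KD1 3 (6.52%) against 3.59%. In Sir2KD2, 0 were called by limma against 1.34% of all probes. There 5 of 46 member probes had an unadjusted p under 0.05, where over all probes 3102 of 23230 did. Gm2a was the 1 member called in both overexpressing lines, and 0 members were called in both knockdown lines. As a set the members lay about as far from control as other genes, a little further in Sir2OE2 and less far in the other 3 lines. Their median absolute log2 ratio was 0.159, 0.170, 0.198 and 0.131 in Sir2OE1, Sir2OE2, Sir2KD1 and Sir2KD2, against 0.179, 0.165, 0.226 and 0.180 for all probes. Their signed medians were 0.06, -0.06, 0.04 and 0.01. Ratios beyond 0.5 in size were seen for 3, 4, 9 and 2 of 46 probes, or 6.52%, 8.70%, 19.6% and 4.35%, where all probes gave 11.4%, 10.5%, 20.8% and 12.2%. On the same side in all 4 lines were 11 of 46 probes, 6 plus and 5 minus. For this count, and for calls in both lines of a kind, the share over all probes is not given here. Neither is read as a trait of the members.

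**Figure D1:**
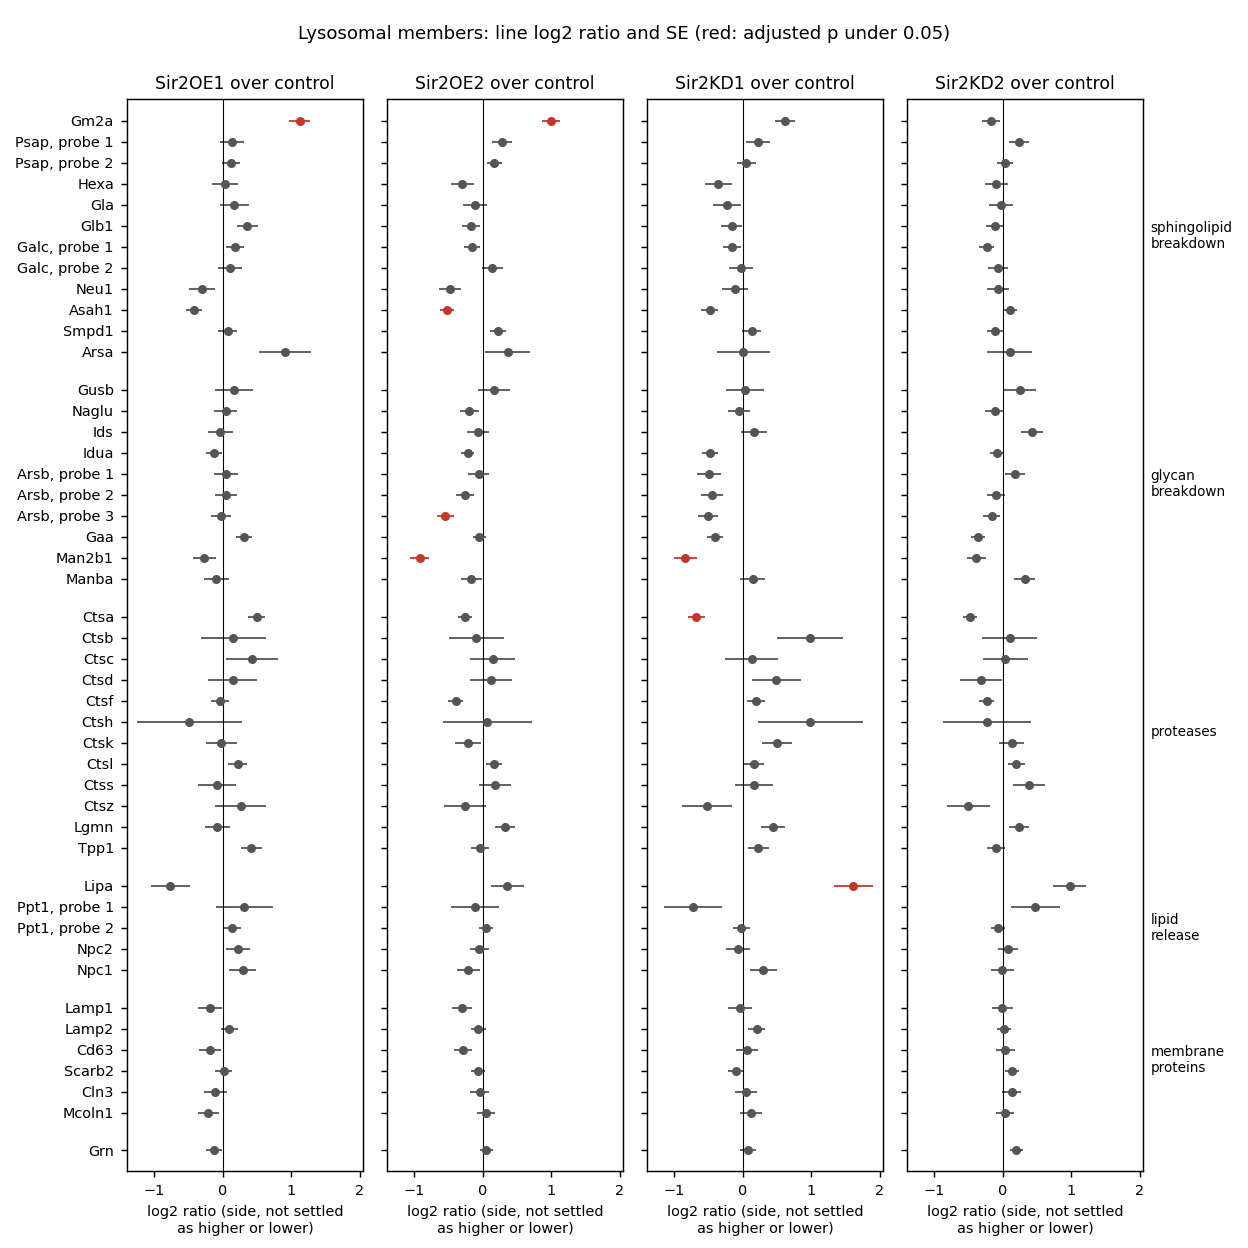
Log2 ratio of each line to its control (points) with its standard error (bars) for the 46 probes of the 41 members, ordered by role, with 1 panel a line and called probes in red. Most points lie close to 0, and the 8 red points belong to 6 genes: Gm2a in both overexpressing lines, Man2b1 in Sir2OE2 and Sir2KD1, Asah1 and Arsb in Sir2OE2, and Ctsa and Lipa in Sir2KD1.

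Among the 10 genes of sphingolipid breakdown, Gm2a stood furthest from control, on the plus side in Sir2OE1 and Sir2OE2. Gm2a encodes the GM2 activator, a small protein that lifts GM2 ganglioside out of the membrane and presents it to beta-hexosaminidase A. Its log2 ratio on the 3 arrays of Sir2OE1 was 1.15, 1.31 and 0.95, and on the 4 arrays of Sir2OE2 0.95, 0.95, 0.90 and 1.19. On the Sir2KD1 arrays it was 0.39, 0.58 and 0.87, and on the Sir2KD2 arrays 0.07, -0.17, -0.07 and -0.51. All 7 overexpression arrays were on the plus side and lay above all 7 knockdown arrays, though the lowest of the first stood close to the highest of the second. The fitted ratio was 1.13 ± 0.15 (SE, n = 3 arrays) in Sir2OE1, a 2.19-fold distance from control (adjusted p = 0.00598). In Sir2OE2 it was 1.00 ± 0.13 (SE, n = 4 arrays, adjusted p = 0.00169). In Sir2KD1 it was 0.62 ± 0.15 (SE, n = 3) and missed the threshold at adjusted p = 0.0539. Sir2KD2 had -0.17 ± 0.13 (SE, n = 4, adjusted p = 0.631). Without slide 2 or slide 3 of Sir2OE1 the call in that line was lost, at adjusted p = 0.0599 and 0.0692, while the call in Sir2OE2 held without any 1 of the 14 arrays.

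The promoter window of Gm2a, the member called in both overexpressing lines, is given for the letters around its start. It spans 250 bases before to 50 bases after the RefSeq start (GRCm38.p6, chr11:55097735-55098034, plus strand), with capitals marking GGGCGG boxes on either strand. It holds 5 such boxes, the first at -218 and the last at -42 from the start, and neither the E-box TCACGTG nor TATAAA nor CCAAT on either strand.
Gm2a: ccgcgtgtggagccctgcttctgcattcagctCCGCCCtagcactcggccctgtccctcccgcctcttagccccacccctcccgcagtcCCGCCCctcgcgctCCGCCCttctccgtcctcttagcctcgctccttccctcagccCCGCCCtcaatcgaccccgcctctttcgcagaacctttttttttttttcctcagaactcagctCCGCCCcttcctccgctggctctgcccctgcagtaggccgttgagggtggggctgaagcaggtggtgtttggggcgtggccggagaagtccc

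Acid ceramidase (Asah1), which splits ceramide into sphingosine and fatty acid, lay on the minus side in 3 of 4 lines. Its ratios were -0.23, -0.61 and -0.45 in Sir2OE1 and -0.46, -0.68, -0.57 and -0.36 in Sir2OE2. In Sir2KD1 they were -0.38, -0.57 and -0.52, while the 4 Sir2KD2 arrays were on the plus side at 0.07, 0.07, 0.22 and 0.07. The arrays of Sir2KD2 thus did not overlap those of any other line. The fitted ratio was called in Sir2OE2 alone, at -0.52 ± 0.10 (SE, n = 4, adjusted p = 0.0214), and was similar in size but not called in Sir2OE1 at -0.42 ± 0.12 (adjusted p = 0.202) and Sir2KD1 at -0.48 ± 0.12 (adjusted p = 0.0588). The Sir2OE2 call was lost without any 1 of that line's own slides, with adjusted p between 0.0533 and 0.158, and with each kind of line fitted alone (adjusted p = 0.111).

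The other sphingolipid genes were not called in any line. Arylsulfatase A (Arsa), which removes sulfate from sulfatide, had the largest mean ratio in a kind among uncalled members, 0.64 over the overexpressing lines. Its line ratio was 0.91 ± 0.39 in Sir2OE1 and 0.37 ± 0.33 in Sir2OE2, against 0.01 and 0.10 in Sir2KD1 and Sir2KD2. Its overexpression arrays ran from -0.46 to 1.94, and its adjusted p was 0.476 in Sir2OE1. Hexa, the alpha subunit of the hexosaminidase that Gm2a serves, was at 0.04, -0.30, -0.36 and -0.09 in Sir2OE1, Sir2OE2, Sir2KD1 and Sir2KD2. Both probes of Psap, the precursor of the saposin activators, stayed on the plus side in all 4 lines, between 0.03 and 0.28. The sialidase Neu1 was on the minus side in all 4, from -0.48 in Sir2OE2 to -0.07 in Sir2KD2. The sphingomyelinase Smpd1, the galactosidases Gla and Glb1 and both probes of galactosylceramidase (Galc) lay between -0.23 and 0.36 in every line.

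Of the 8 genes of glycan and glycogen breakdown, Man2b1 was on the minus side in all 4 lines and called in Sir2OE2 and Sir2KD1. Man2b1 is the alpha-mannosidase that trims N-glycans taken from glycoproteins. Its ratios were 0.07, -0.65 and -0.28 on the Sir2OE1 arrays and -0.79, -1.22, -1.04 and -0.62 on the Sir2OE2 arrays. They were -0.68, -0.84 and -1.003 in Sir2KD1 and -0.52, -0.41, -0.30 and -0.30 in Sir2KD2. Apart from slide 1 of Sir2OE1, all of the 14 arrays stood on the minus side. The fitted ratio was -0.92 ± 0.14 in Sir2OE2 (SE, n = 4, adjusted p = 0.00452) and -0.84 ± 0.17 in Sir2KD1 (SE, n = 3, adjusted p = 0.0199), against -0.27 ± 0.17 in Sir2OE1 and -0.38 ± 0.14 in Sir2KD2, neither called. The Sir2OE2 call held without any 1 array, while the Sir2KD1 call was lost without slide 1, 2 or 3 of that line (adjusted p = 0.0720, 0.0751 and 0.0990). It was also lost with each kind of line fitted alone (adjusted p = 0.0580) and with arrays centred and scaled (-0.74, adjusted p = 0.0716).

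The promoter window of Man2b1, the member called in lines of both kinds, covers chr8:85083019-85083318, plus strand (GRCm38.p6). Capitals mark the CCAAT box, read here as ATTGG at -24, and the GGGCGG box at -4 (0 is the first transcribed base). TCACGTG and TATAAA were not in this window.
Man2b1: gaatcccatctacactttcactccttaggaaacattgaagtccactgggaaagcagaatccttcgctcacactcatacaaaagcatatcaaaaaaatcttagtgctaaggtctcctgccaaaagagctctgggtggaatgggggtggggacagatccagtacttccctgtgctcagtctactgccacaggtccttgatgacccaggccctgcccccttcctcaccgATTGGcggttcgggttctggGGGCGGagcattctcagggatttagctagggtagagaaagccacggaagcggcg

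Arylsulfatase B (Arsb), which takes sulfate off dermatan and chondroitin sulfate, was called in Sir2OE2 through the third of its 3 probes only. That probe read 0.07, 0.07 and -0.20 in Sir2OE1 and -0.30, -0.93, -0.42 and -0.53 in Sir2OE2. In Sir2KD1 it read -0.44, -0.62 and -0.46, and in Sir2KD2 -0.01, -0.32, -0.11 and -0.20. The 4 Sir2OE2 arrays lay below all 3 Sir2OE1 arrays. Its ratio in Sir2OE2 was -0.54 ± 0.12 (SE, n = 4) with adjusted p = 0.0412, where the first and second probes had -0.06 and -0.25. The call was lost in 13 of the 14 fits without 1 array, with adjusted p up to 0.233, and with each kind fitted alone (adjusted p = 0.145). In Sir2KD1 the probes agreed more closely, at -0.49, -0.44 and -0.50, none of them called.

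Acid alpha-glucosidase (Gaa), which degrades glycogen, was not called in any line but was among the members with the smallest spread between arrays (residual SD 0.132). It was picked out here after its values were seen. Its arrays read 0.41, 0.47 and 0.07 in Sir2OE1 and -0.06, -0.21, 0.02 and 0.06 in Sir2OE2. In Sir2KD1 they read -0.45, -0.37 and -0.40, and in Sir2KD2 -0.39, -0.30, -0.34 and -0.39. All 7 knockdown arrays were on the minus side and below every overexpression array. The line ratios were 0.31, -0.05, -0.41 and -0.35 in Sir2OE1, Sir2OE2, Sir2KD1 and Sir2KD2, with adjusted p = 0.0983 in Sir2KD1. Of the glycosaminoglycan enzymes, Idua was on the minus side in all 4 lines, furthest in Sir2KD1 at -0.47, and Ids was furthest in Sir2KD2 at 0.43. Gusb, Naglu and the beta-mannosidase Manba stayed between -0.19 and 0.32.

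Among the 12 proteases, cathepsin A (Ctsa) was called in Sir2KD1. Ctsa is a carboxypeptidase that also holds the sialidase Neu1 and the galactosidase Glb1 in a protective complex. Its ratios were 0.49, 0.39 and 0.60 on the Sir2OE1 arrays and -0.17, -0.29, -0.38 and -0.19 on the Sir2OE2 arrays. They were -0.75, -0.43 and -0.81 in Sir2KD1 and -0.50, -0.48, -0.34 and -0.58 in Sir2KD2. Sir2OE1 was the 1 line on the plus side, with no overlap with the other 3 lines. The fitted ratio was -0.68 ± 0.12 in Sir2KD1 (SE, n = 3, adjusted p = 0.0125) and -0.48 ± 0.10 in Sir2KD2 (SE, n = 4, adjusted p = 0.0534). It was 0.50 ± 0.12 in Sir2OE1 (adjusted p = 0.106) and -0.26 ± 0.10 in Sir2OE2 (adjusted p = 0.302). The Sir2KD1 call was lost without slide 1 or slide 3 of that line, at adjusted p = 0.122 and 0.0708, and with each kind fitted alone, at 0.1004. The partners Neu1 and Glb1 had -0.11 and -0.16 in Sir2KD1 and were not called.

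The promoter window of Ctsa (chr2:164833523-164833822, plus strand, GRCm38.p6) is shown because it holds 2 copies of the 8-base palindrome TCACGTGA, in capitals. They lie at -13 to -6 and at 4 to 11, either side of the RefSeq start. The TATAAA box, the CCAAT box and the box GGGCGG were not in this window. Any window of Ctsa without CACGTG was left out.
Ctsa: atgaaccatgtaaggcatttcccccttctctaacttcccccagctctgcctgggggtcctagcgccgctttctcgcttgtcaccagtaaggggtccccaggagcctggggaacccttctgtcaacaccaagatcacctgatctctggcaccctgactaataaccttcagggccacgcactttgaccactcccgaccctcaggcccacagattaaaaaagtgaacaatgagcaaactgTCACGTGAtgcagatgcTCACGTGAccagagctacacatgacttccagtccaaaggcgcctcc

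The 11 other proteases were not called in any line. Cathepsin B (Ctsb), an abundant cysteine protease, had a mean of 0.54 over the knockdown lines, from 0.98 ± 0.48 in Sir2KD1 and 0.10 ± 0.40 in Sir2KD2. Its arrays spread from -1.72 to 1.12 within Sir2OE2 alone. Cathepsin Z (Ctsz), a carboxypeptidase, had a mean of -0.51 over the knockdown lines, from -0.52 ± 0.37 and -0.50 ± 0.31, and its 7 knockdown arrays ran from -1.34 to 0.87. Cathepsin H (Ctsh), named after its values were seen, spread furthest of all members, with a residual SD of 1.46 and arrays of -1.53, 2.31 and 2.38 in Sir2KD1. Slide 1 of Sir2KD1 had the line in channel 2 and slides 2 and 3 in channel 1. Before the turn these values thus all lay on the minus side, and this spread depends on the turn. Ctsh was called in Sir2KD1 when slide 1 was left out. The cause of the change of side with the channel was not tested. The probes of Ctsb and Ctsh were the 2 of 46 member probes (4.35%) above the 90th percentile of the residual SD of all probes, 0.872. The median over the members was 0.268, below the 0.386 of all probes. The cathepsins C, D, F, K, L and S, legumain (Lgmn) and tripeptidyl peptidase (Tpp1) lay between -0.39 and 0.50. Cathepsin L (Ctsl) was on the plus side in all 4 lines, between 0.17 and 0.22.

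Of the 4 genes of lipid release and cholesterol export, acid lipase (Lipa) had the largest called ratio of any member. Lipa frees cholesterol and fatty acids from the esters that reach the lysosome. On the Sir2OE1 arrays it read -0.98, -0.75 and -0.57, and on the Sir2OE2 arrays 0.24, 0.68, 0.29 and 0.22. On the Sir2KD1 arrays it read 1.12, 2.66 and 1.21, and on the Sir2KD2 arrays 1.45, 0.55, 1.25 and 0.66. Both knockdown lines and Sir2OE2 were on the plus side throughout, Sir2OE1 was on the minus side throughout, and slide 2 of Sir2KD1 was the furthest from 0. The fitted ratio was 1.61 ± 0.28 in Sir2KD1 (SE, n = 3), a 3.06-fold distance from control (adjusted p = 0.0119). It was 0.98 ± 0.24 in Sir2KD2 (SE, n = 4, adjusted p = 0.0890). It was -0.77 ± 0.28 in Sir2OE1 (adjusted p = 0.370) and 0.36 ± 0.24 in Sir2OE2 (adjusted p = 0.628). Without any 1 array the Sir2KD1 ratio stayed between 1.16 and 1.96 and remained called, with adjusted p up to 0.0417. With each kind of line fitted alone the ratio was the same but the call was lost (adjusted p = 0.130).

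The Lipa window (chr19:34527425-34527724, minus strand, GRCm38.p6), given for the member with the largest called ratio, has in capitals a TATAAA box read as TTTATA at -239, a CCAAT box read as ATTGG at -26 and a GGGCGG box read as CCGCCC at 10. It has no TCACGTG on either strand.
Lipa: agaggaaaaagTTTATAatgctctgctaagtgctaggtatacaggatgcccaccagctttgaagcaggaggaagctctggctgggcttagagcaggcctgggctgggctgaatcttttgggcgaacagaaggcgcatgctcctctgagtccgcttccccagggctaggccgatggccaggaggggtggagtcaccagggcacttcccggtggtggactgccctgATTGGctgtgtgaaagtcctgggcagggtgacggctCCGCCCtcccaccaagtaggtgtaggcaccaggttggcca

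The probes of Ppt1, the thioesterase that removes palmitate from proteins, disagreed. The first had -0.72 ± 0.42 in Sir2KD1 and 0.48 ± 0.35 in Sir2KD2, with knockdown arrays between -1.57 and 1.16, while the second stayed between -0.06 and 0.14 in every line. Neither was called. Npc1 and Npc2, which pass cholesterol out of the lysosome, lay between -0.21 and 0.30 and were not called.

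The 6 membrane proteins and progranulin were not called in any line. The line ratios of the membrane proteins ran from -0.30 to 0.20, with Lamp1 in Sir2OE2 at the lower end. The uninformative Lamp1 and Cd63 values described below were kept in all counts and medians, those by E-box included. Lamp2, a coat protein needed for autophagy, was at 0.10, -0.06, 0.20 and 0.02 in Sir2OE1, Sir2OE2, Sir2KD1 and Sir2KD2. Mcoln1, a cation channel, was at -0.21, 0.05, 0.12 and 0.03. Scarb2, the receptor that carries glucocerebrosidase to lysosomes, and the membrane protein Cln3 lay between -0.10 and 0.13. Lamp1 in the overexpression arrays, and the tetraspanin Cd63 in both kinds, had a set of ratios shared by 329 probes in the overexpression and 173 in the knockdown arrays, so those values carry no information of their own. Progranulin (Grn), a growth factor precursor cut into granulins in the lysosome, had the smallest residual SD of all members, 0.116, and lay between -0.12 and 0.20.

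**Figure D2:**
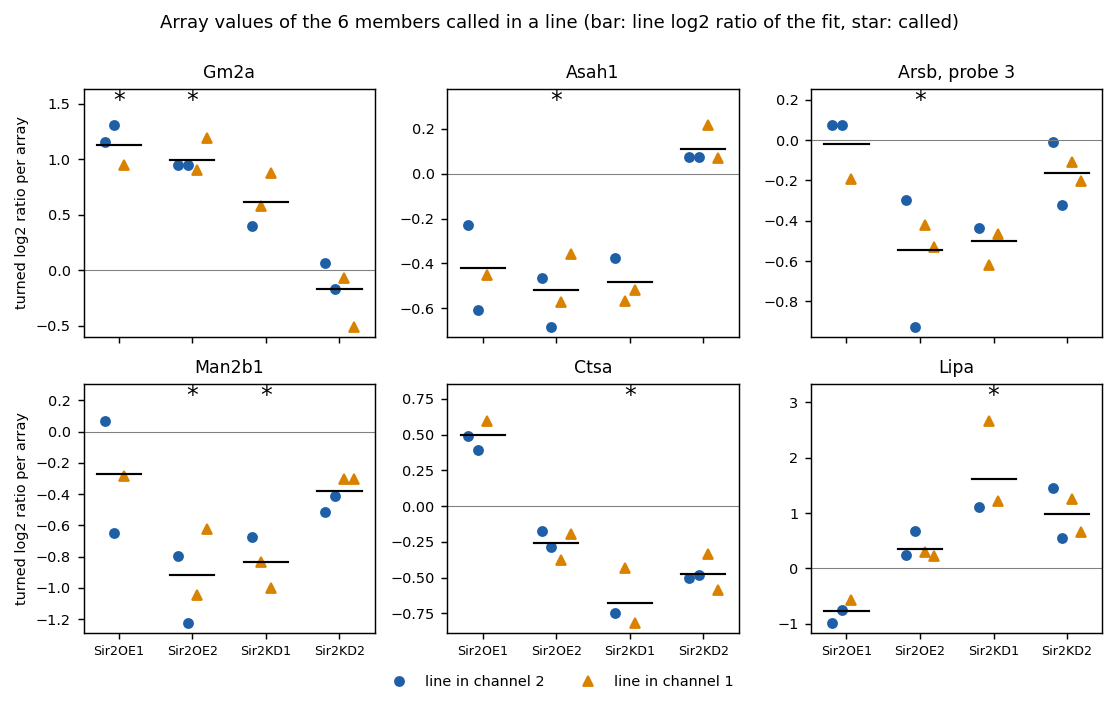
Turned log2 ratio on each array for the 6 members called in a line, by line, with circles for the line in channel 2, triangles for the line in channel 1, a bar for the fitted line ratio and a star where it was called. Gm2a has all 7 overexpression arrays between 0.90 and 1.31, Man2b1 is below 0 on all arrays but 1, and Lipa in Sir2KD1 includes 1 array at 2.66.

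Lines of the same kind share their control RNA, which drops out of their difference. Between Sir2OE1 and Sir2OE2, 0 of 46 probes were called by limma, where the share over all probes was 0.323%. Of the 46, 7 had an unadjusted p under 0.05, where over all probes 1738 of 23230 did. The smallest adjusted p was that of Ctsa, whose difference of 0.76 ± 0.16 had a 95% interval from 0.41 to 1.10 and adjusted p = 0.0982. Lipa differed by -1.12 (-1.95 to -0.30) and Man2b1 by 0.65 (0.17 to 1.13), both with adjusted p = 0.399. Between Sir2KD1 and Sir2KD2, 0 probes were called by limma against 0.689% of all probes. Of the 46, 5 had an unadjusted p under 0.05, where over all probes 2736 of 23230 did. Gm2a differed by 0.79 (0.35 to 1.23, adjusted p = 0.128) and Asah1 by -0.59 (-0.94 to -0.24, adjusted p = 0.154). The intervals thus reach sizes as large as the called line ratios, and a call in 1 line without a call in the other is not shown to be a difference between them.

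Overexpression was set against knockdown with the line as the replicate, 2 lines a kind. In this test 0 of 46 probes were called by limma, as were 0% of all probes (1822 of 23230 at an unadjusted p under 0.05), and 2 members had an unadjusted p under 0.05, Lipa and Gm2a. The difference was -1.50 ± 0.45 for Lipa (SE, adjusted p = 0.593) and 0.84 ± 0.31 for Gm2a (SE, adjusted p = 0.632). Ctsa had 0.70 ± 0.30 and Gaa 0.51 ± 0.20 (adjusted p = 0.668 and 0.646). With arrays counted as replicates in place of lines, the same 4 genes were called, 8.70% of the member probes against 2.66% of all probes. That count treats repeated arrays of 1 line as independent. With the knockdown ratios taken with the other channel on top, 7 members were called by arrays. The share over all probes in that setting is not given here.

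Other genes of the organelle were taken from lists grouped by role. Lists of further hydrolases, membrane proteins, proton pump subunits, enzyme sorting, transcriptional regulators and autophagy held 108 genes, of which 88 were measured by 95 probes. In Sir2OE1, Sir2OE2, Sir2KD1 and Sir2KD2, 2, 1, 1 and 3 of these probes were called, or 2.11%, 1.05%, 1.05% and 3.16%, against 1.06%, 2.81%, 3.59% and 1.34% of all probes. The share was above that of all probes in Sir2OE1 and Sir2KD2 and below it in Sir2OE2 and Sir2KD1, on 1 to 3 probes a line. Litaf, a protein of late endosome and lysosome membranes, was the 1 listed gene called in both lines of a kind, at 0.70 ± 0.15 in Sir2KD1 and 0.66 ± 0.13 in Sir2KD2 (adjusted p = 0.0327 and 0.0350), against 0.32 and -0.14 in Sir2OE1 and Sir2OE2. Map1lc3a, an LC3 protein of the autophagosome membrane, was called at 0.87 in Sir2OE1 and -0.47 in Sir2KD2. Tmem192 was called in Sir2OE1 at 0.58, and Gnptab, a subunit of the enzyme that makes the mannose 6-phosphate tag, in Sir2OE2 at 1.34. Of 4 probes of Mitf, 1 was called, in Sir2KD2 at 1.55. The last 4 genes lie outside the rule for names and were named after their calls were seen. The 16 further hydrolases and the 14 proton pump subunits had 0 calls in any line by limma. In a line, 2 to 4 and 0 to 2 of their probes had an unadjusted p under 0.05. Over all probes it was 2232 to 3897 of 23230.

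**Figure D3:**
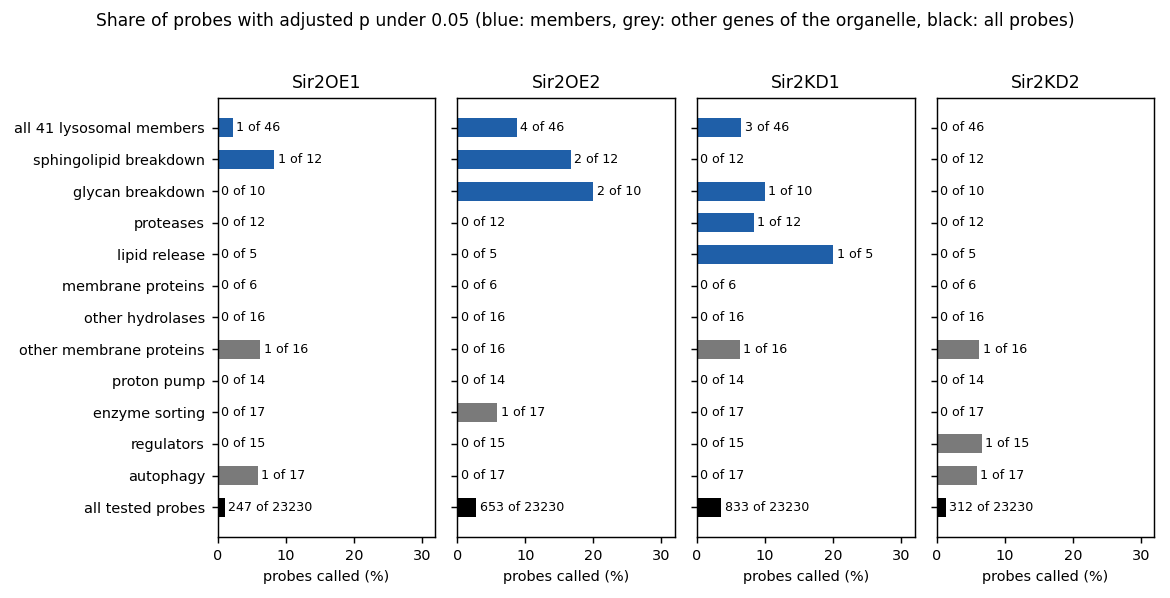
Percent of probes called in each line for all members and their roles (blue), for other lists of lysosomal and autophagy genes (grey) and for all tested probes (black), with the counts at the bar ends. The member share is 2.17%, 8.70%, 6.52% and 0 in the 4 lines, against 1.06%, 2.81%, 3.59% and 1.34% of all probes. Each blue bar above 0 rests on 1 to 4 called probes, and the other blue bars have 0 called.

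Macrophages are rich in lysosomes, and markers of cells other than beta cells were read beside the members. Of 9 macrophage probes (8 genes) only Itgam was called, in Sir2KD1 at 1.34, the line in which Lipa was called on the same side. In Sir2KD1 itself the 9 probes ran from -0.96 to 1.34 with a median of 0.15, and 6 were on the plus side. Of 10 fibroblast probes (8 genes) 0 were called in any line by limma. In a line, 0 or 1 of them had an unadjusted p under 0.05, where over all probes 2232 to 3897 of 23230 did. Of 12 measured beta-cell genes, 3, 3, 5 and 3 were called in Sir2OE1, Sir2OE2, Sir2KD1 and Sir2KD2 (25%, 25%, 41.7% and 25%), against 1.06%, 2.81%, 3.59% and 1.34% of all probes. The glucose transporter Slc2a2 was called in all 4 lines, at -0.90, -1.50, -2.08 and -0.89 in the same order. The convertase Pcsk1 was called at 0.78 in both overexpressing lines and 0.76 in Sir2KD2, and had 0.44 in Sir2KD1. The homeodomain factor Isl1 was called at 0.70 in Sir2OE1, -0.78 in Sir2KD1 and -0.59 in Sir2KD2, and had -0.26 in Sir2OE2. Also called in Sir2KD1, and named after their calls were seen, were the transcription factors Pdx1 (-0.77), Nkx2-2 (-0.92) and Neurod1 (-0.47), the last also in Sir2OE2 (-0.50). In Sir2KD1, 6 of the 12 beta-cell probes were on the plus side, up to 0.44, and the median was -0.19. Sir2KD1 is the line in which Lipa, Ctsa and Man2b1 were called. Without intensities, summed marker levels cannot be given, and the part of any other cell type in the member ratios was not tested.

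The E-box bound by TFEB and its relatives was looked up in the RefSeq promoter windows (250 bases before to 50 after the start), which 37 members had. The 4 without a window were Npc1, Ctsb, Asah1 and Ctsh. CACGTG was found in 13 members (35.1%), against 8.09% of 27025 gene symbols with a window. A gene with several windows counted if any of them held the motif, and the 27025 symbols had 32851 windows. TCACGTG on either strand, which contains CACGTG, was found in 11 (29.7%) against 4.29%, and the full palindrome TCACGTGA in 5 (13.5%) against 1.12%. CCAAT was found in 37.8% of members and 41.1% of genes, TATAAA in 8.11% and 15.7%, and GGGCGG in 67.6% and 38.2%, all on either strand. The 27025 symbols include genes without a probe here, whereas all members had a probe. Among genes with a window and a tested probe, 695 had TCACGTG and 11061 did not. For the other motifs the share over such genes is not given here. The 26 bases around the E-box nearest the start are given for each of the 13 members (GRCm38.p6, gene strand), to show how far the flanks are alike. Capitals mark CACGTG with a flanking T or A where present.
Gla (chrX:134601184-134601209, minus strand): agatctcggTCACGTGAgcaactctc
Glb1 (chr9:114401020-114401045, plus strand): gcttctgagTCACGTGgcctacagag
Arsa (chr15:89477425-89477450, minus strand): aactcagtgTCACGTGttgtctgctc
Naglu (chr11:101070011-101070036, plus strand): accttcaggTCACGTGgcccgaggtc
Gaa (chr11:119267813-119267838, plus strand): tctgtgcgaTCACGTGtttgactctg
Ctsa (chr2:164833768-164833793, plus strand): tgcagatgcTCACGTGAccagagcta
Ctsd (chr7:142387910-142387935, minus strand): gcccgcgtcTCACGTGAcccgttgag
Ctsf (chr19:4855076-4855101, plus strand): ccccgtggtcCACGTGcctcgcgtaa
Ctsl (chr13:64370741-64370766, minus strand): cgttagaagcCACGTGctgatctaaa
Lgmn (chr12:102439126-102439151, minus strand): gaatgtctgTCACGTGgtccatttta
Lamp1 (chr8:13159136-13159161, plus strand): gtgaccacaTCACGTGcggaacggag
Cln3 (chr7:126583342-126583367, minus strand): cgggtactgTCACGTGAcccccaacc
Mcoln1 (chr8:3500464-3500489, plus strand): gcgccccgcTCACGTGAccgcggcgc

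In these windows the E-box of 11 members has T before it, and that of Gla, Ctsa, Ctsd, Cln3 and Mcoln1 also has A after it, while Ctsf and Ctsl have neither. The centre of the box nearest the start lay between -233 (Ctsl) and 8 (Ctsa) bases from it, and Lamp1 had 4 boxes. A match to these letters describes the window and does not show that a factor binds there.

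**Figure D4:**
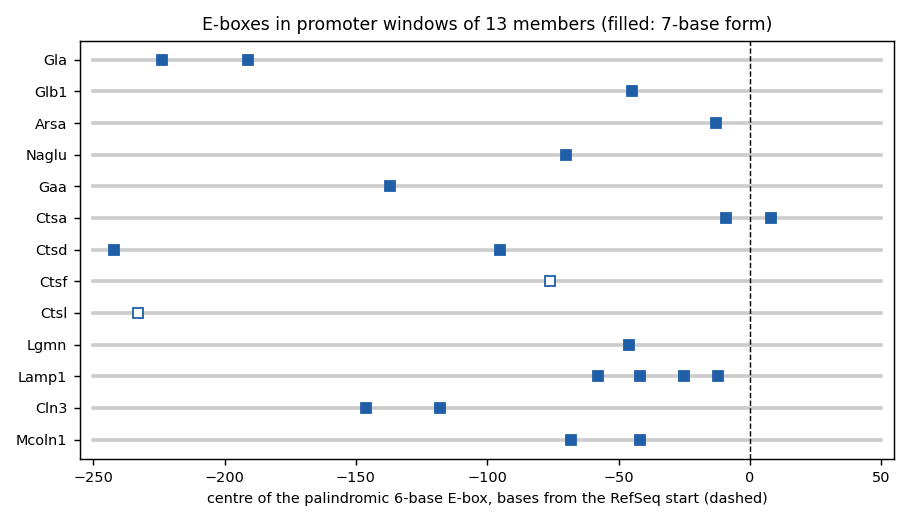
Position of each CACGTG (squares) in the promoter window of the 13 members that have one, in bases from the RefSeq start (dashed line), filled where a flanking T or A makes TCACGTG. Lamp1 has 4 boxes, Ctsa 1 on each side of the start, and the open squares are Ctsf and Ctsl.

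Median ratios were near 0 in members with and without the E-box. For the 11 with TCACGTG the median log2 ratio was 0.15, -0.05, -0.03 and -0.03 in Sir2OE1, Sir2OE2, Sir2KD1 and Sir2KD2, and for the 31 probes of members without it 0.05, -0.06, 0.06 and 0.03. Of the 11, Ctsa was called in Sir2KD1 (9.09%) and 0 in the other 3 lines. Of the 31, 1, 3, 2 and 0 were called, or 3.23%, 9.68%, 6.45% and 0%. Over all genes with a window, 1.61%, 3.22%, 4.16% and 0.805% of probes were called with TCACGTG in it and 1.34%, 3.38%, 3.99% and 1.57% without it. Over all genes with TCACGTG in a window the medians were 0.01, -0.03, 0.01 and 0.02. Gm2a, Man2b1, Lipa and Arsb, which were called, had no TCACGTG in their window.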

How the data were processed

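The authors deposited log2 ratios between the channels of each array, centred per probe within each kind of perturbation: values of a probe summed to 0 over 6 of 7 arrays (largest deviation 5.6e-08), leaving out slide 2 of Sir2OE1 and of Sir2KD1. The sources used here do not give the array software, background correction, normalization or direction. The sign was turned on arrays whose line was in channel 1. No intensities were at hand, so precision depends on how many arrays a line has.

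Of 23232 probes, 16885 had 1 symbol, 143 several and 6204 were not listed (annotation of 2007); 16205 were updated through Entrez identifiers with a GRCm38.p6 gene table. The 23230 probes with at least 2 arrays in every line entered a limma fit (version 3.58.1, R 4.3.3, lmFit and eBayes) over 14 arrays, with a coefficient per line and a dye term per kind, each coefficient tested against 0. Overexpression minus knockdown used limma on the 4 line coefficients. The script was tested on simulated data. Probes sharing the most frequent set of percent ratios on at least 5 arrays (within 1 percentage point) were taken as uninformative. Slide numbers were not used to pair samples in the main fit. In deviations from that fit, 1 of 6 same-numbered pairs had r above 0.1, and 1 of 12 arrays correlated best with its own number. The centring and the fitted terms push such correlations down, so this check cannot exclude pairing.

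Members, gene lists and tests were chosen with earlier results of these data known. Named genes were members called in a line or contrast, the 3 uncalled members with the largest mean in a kind, members whose probes lay on opposite sides by over 0.5, and listed genes called in both lines of a kind. Alternatives were other dye terms, no turn, array scaling, each kind alone, slide number as a block, and leaving out each array. Promoter sequences are RefSeq's.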

Additional observations from a re-analysis of the deposited data

Results flagged for a closer look

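In groups of 4 arrays, a sample far from the other 3 was sought by the ratio of its gap to the whole range, against Dixon's 95% critical value. Of 92 groups of a member probe and line, 8 passed, where chance gives 4.6 for normally distributed values without ties. Some values here tie, such as those of Gm2a on slides 1 and 2 of Sir2OE2 (0.9467), which raises the ratio. The 8 is therefore not read as an excess. In Sir2OE2, Gm2a was highest on slide 4 at 1.19 with the others between 0.901 and 0.947. Glb1 was highest on slide 3 at 0.0424, Lipa highest on slide 2 at 0.678, and the second Galc probe lowest on slide 1 at -0.174. In Sir2KD2, slide 2 gave 3 of the 4 cases: Glb1 was lowest at -0.432, Smpd1 lowest at -0.378 and the second Arsb probe highest at 0.112. Asah1 was highest on slide 3 at 0.216, with the others between 0.072 and 0.0724.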

How the results depend on the processing

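Counts of called members moved with the design. Without a dye term they were 3 in Sir2OE1, 5 in Sir2OE2 (Ctsf added), 8 in Sir2KD1, 3 in Sir2KD2, 1 for Sir2OE1 minus Sir2OE2 and 2 for Sir2KD1 minus Sir2KD2. With a single dye term they were 2, 7, 1 and 1 (Sir2OE1, Sir2KD1, Sir2KD2, Sir2OE1 minus Sir2OE2). With each kind fitted alone they were 2 in Sir2OE2 (Asah1 and Arsb lost) and 0 in Sir2KD1 (Lipa, Ctsa and Man2b1 lost). With arrays centred and scaled they were 2 in Sir2KD1 (Man2b1 lost) and 1 in Sir2KD2 (Lipa added). With values not turned they were 0 in Sir2OE1, Sir2OE2 and Sir2KD1 and 1 for Sir2KD1 minus Sir2KD2 (Ctsh). There Gm2a in Sir2OE2 was at -0.05038, Lipa in Sir2KD1 at -0.52 and Man2b1 in Sir2KD1 at 0.20, on the other side. Overexpression minus knockdown gave 4 with arrays as replicates and, in an alternative chosen after seeing the data, 7 with the other channel on top for knockdown. With slide number as a random replicate block (correlation -0.05897), 5 members were called in Sir2KD1, Gm2a and Idua being added, and no other count changed. Leaving out 1 array gave 0 to 1 in Sir2OE1, 2 to 4 in Sir2OE2, 1 to 3 in Sir2KD1, 0 to 1 in Sir2KD2 (1 without slide 2 of Sir2KD1), 0 for Sir2OE1 minus Sir2OE2, 0 to 1 for Sir2KD1 minus Sir2KD2 (1 without slide 1 of Sir2KD1) and 0 for overexpression minus knockdown. Without slide 1 of Sir2KD1, Ctsh and Lipa were called in that line, and Ctsa and Man2b1 were not. Apart from arrays as replicates, shares over all probes are not given for the settings of this paragraph. Whether the members moved more than all probes cannot be told from these counts. The cause of the moves was not tested. All called members kept their side in every fit that left out 1 array.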
